A study of Macaca mulatta with 56 samples.

Results

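TTR, KL, CLIC6, FOLR1, AQP1 and OTX2 mark the epithelium of the choroid plexus, the tissue in the brain's ventricles that secretes cerebrospinal fluid. The 6 genes were chosen by name with earlier results of these data known, among them the level of TTR in each library, as a measure of choroid plexus carried along when brain regions were dissected. The table has 17807 rows, each an Ensembl macaque gene identifier, and 5 of the 6 genes were matched to a row (AQP1 was not). All 5 were used in amygdala. Outside amygdala, rows were selected on measured values: a row was used only if its mean log2 level lay within 2 of that in amygdala, which left TTR (level difference of -0.41, other regions minus amygdala) and CLIC6 (-0.35). FOLR1, at 2.57, lay just outside this limit, and KL (-6.76) and OTX2 (9.84) lay far outside it.

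The limit was needed because amygdala libraries and the others do not hold the same transcript under every identifier. MBP, the main myelin protein, averaged 608197 in amygdala and 0 in each other region. A matching level does not show that a name is right. Every value outside amygdala, of TTR and CLIC6 and of the other genes named below, carries that doubt.

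The choroid plexus epithelium pumps ions and water into the ventricles and moves hormones, vitamins and nutrients between blood and cerebrospinal fluid. Sheets of it hang in the lateral ventricle, whose inferior horn borders the hippocampus and the amygdala. TTR (transthyretin), the carrier of thyroxine and, with RBP4, of retinol, is one of its most abundant transcripts. KL encodes klotho, a co-receptor for FGF23, CLIC6 a chloride intracellular channel protein, and FOLR1 the folate receptor that carries folate into the fluid. AQP1 is a water channel of the epithelium, and OTX2 a homeodomain transcription factor that the tissue needs to form.

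Messenger RNA was sequenced from 4 brain regions of 14 old female rhesus macaques aged 19.4 to 23.2 years, 1 library per animal and region, giving 56 libraries. Every animal had its ovaries and uterus removed (OvH) about 6 weeks after a Western-style diet began, in which fat gave 36% and sugars 18.5% of calories, and both groups share this background. In 7 animals, called HT, capsules released estradiol (mean serum level of 82.1 pg/mL). The other 7, called OvH, received empty capsules (6.6 pg/mL). The study lasted 30 months. Animals shared pens, and pens were not analysed here.

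Libraries held 34629533 to 93335855 reads (median 59875932). Values are normalized counts, scaled by the authors to a common upper quartile, and log2 differences are of the value plus 1. Tests are limma with Benjamini-Hochberg adjustment over all rows tested, unless another test is named, and the threshold was 0.05. In bulk tissue a change in the number of cells of a type cannot be told apart from a change in RNA per cell.

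Before any result, 2 libraries labelled hippocampus went against their label, those of subjects 30 and 43, both OvH. Over the 500 rows that differed most between hippocampus and prefrontal cortex, the library of subject 30 correlated at 0.538 with the mean of the other hippocampus libraries and at 0.835 with the mean of prefrontal cortex. The library of subject 43 gave 0.486 and 0.839. The other 12 hippocampus libraries correlated at 0.875 to 0.969 with their own label and at 0.438 to 0.653 with prefrontal cortex. These correlations are across rows chosen for their difference between the regions and are a description.

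Genes high in hippocampus, picked after their values were seen, showed the same split. FIBCD1 stood at 226 and 340 in subjects 30 and 43, against 4239 to 15186 in the other 12 hippocampus libraries and 263 to 651 in prefrontal cortex. TSPAN18 stood at 136 and 130, against 1611 to 5454. No library labelled occipital or prefrontal cortex correlated better with another of these 3 regions than with its own. The amygdala label was not checked in this way, because its rows are not comparable. The main hippocampal results for TTR and CLIC6 are therefore also given without subjects 30 and 43.

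TTR was measured in all 4 regions, and 2 hippocampus libraries stood far above the rest. The values of the OvH hippocampus libraries, for subjects 30 to 35 and then 43, were 114, 3604, 3650, 1325282, 19311, 3105 and 27.0. In the HT libraries, for subjects 36 to 42, they were 2697, 6003, 3049, 49610, 1462333, 3817 and 2138. The libraries of subjects 33 (OvH) and 40 (HT) were the 2 highest, 365-fold and 403-fold above the median of 3627 in the 10 hippocampus libraries left after setting aside subjects 30, 33, 40 and 43. The libraries of subjects 39 and 34 came next, and those of subjects 43 and 30, which went against their label, were the 2 lowest.

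Counted as reads, TTR took 1056394 reads in the hippocampus library of subject 33, or 2.03% of all its reads (Wilson 95% interval 2.03 to 2.03%). In that of subject 40 it took 1082638 reads, or 2.38% (2.37 to 2.38%). These intervals cover counting error only. In the library of subject 43 there were 15 TTR reads. Each treatment group held 1 of the 2 very high libraries, and the ranges of OvH and HT overlapped.

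In amygdala, TTR ran from 123 through a median of 932 to 24979 in OvH, and from 192 through 1245 to 4697 in HT. Subject 35 held the highest value and subject 42 the second, and the groups overlapped. In occipital cortex the OvH libraries ran from 197 through 493 to 1282 and the HT libraries from 78.3 through 325 to 3126. Subjects 40 and 38 were highest there. In prefrontal cortex, the region with the lowest median, OvH ran from 43.0 through 293 to 615 and HT from 34.4 through 96.4 to 607, again with overlap.

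**Figure D1:**
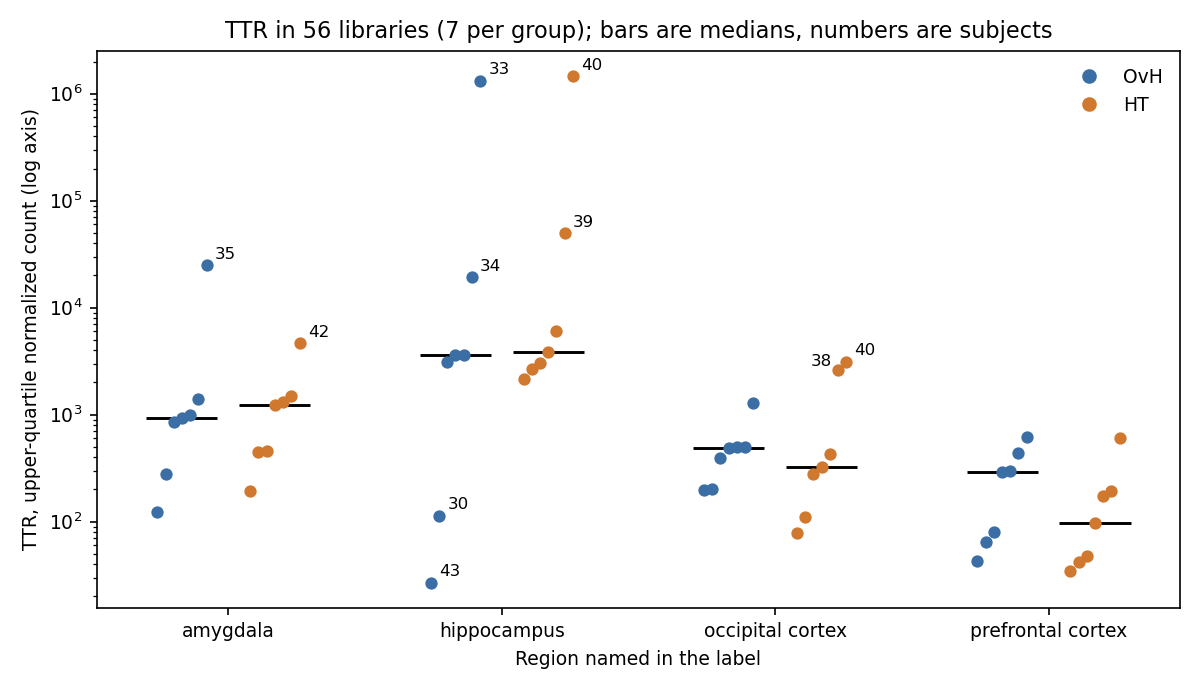
TTR, as upper-quartile normalized count on a log axis, in each of the 56 libraries by region and treatment; each point is 1 library, bars are group medians and numbers name subjects. The hippocampus libraries of subjects 33 and 40 lie at 1325282 and 1462333 and those of subjects 30 and 43 at 114 and 27.0.

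The 2 highest hippocampus values of CLIC6 came from the same subjects, 33 at 807 and 40 at 860. The other 10 hippocampus libraries, without subjects 30 and 43, ran from 1.43 through a median of 12.2 to 44.7. Subjects 30 and 43 stood at 11.8 and 5.40, inside that range, unlike their TTR. In occipital cortex CLIC6 had a median of 3.25, at most 8 reads in any library and 2 libraries at 0, and its mean of 3.48 was below the minimum of 10 for a test between treatments. In prefrontal cortex the values ran from 6.71 through 15.5 to 48.7. In amygdala they ran from 1.54 through 11.9 to 72.0.

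KL, FOLR1 and OTX2 were usable only in amygdala. KL ran from 59.3 (subject 32) through 251 to 470 (subject 35). FOLR1 ran from 15.4 (subject 41) through 71.3 to 173 (subject 35), and OTX2 from 0 (subject 38) through 6.24 to 44.3 (subject 35). Subject 35 thus had the highest amygdala library for TTR, KL, FOLR1 and OTX2, that is 4 of 5 genes, where 10.1% of all rows tested in amygdala had their highest value in that library. For FOLR1 subject 31 came close, at 160, while its TTR in amygdala was 279. For CLIC6 subject 35 was second, at 70.1, behind subject 42. Subjects 35 and 42 were the top pair for TTR, CLIC6 and OTX2, against 2.27% of all rows. The libraries were singled out by TTR, so these counts are a description. OTX2, with an amygdala mean of 10.6, lay just above the minimum of 10 for a test, and without subjects 35 and 42 it fell below. It was tested in 12 of 14 fits with 1 library left out. Its place in both counts was thus favoured by the filter and is no support.

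TTR varied widely within treatment groups. Its within-group SD on the log2 scale was 4.31 in hippocampus, the rank of 4 from the largest among 13499 usable rows, whose median SD was 0.44. Without subjects 30 and 43 it was 3.55 (rank 9), and over the 10 libraries without subjects 30, 33, 40 and 43 it was 1.53 (rank 146, median of all rows 0.34). In amygdala it was 2.00, in occipital cortex 1.59 and in prefrontal cortex 1.49. CLIC6 had an SD of 2.60 in hippocampus, 2.75 without subjects 30 and 43 and 1.46 over those 10 libraries, and of 1.60 in amygdala. The amygdala SD was 1.39 for OTX2, 1.14 for FOLR1 and 0.78 for KL.

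**Figure D2:**
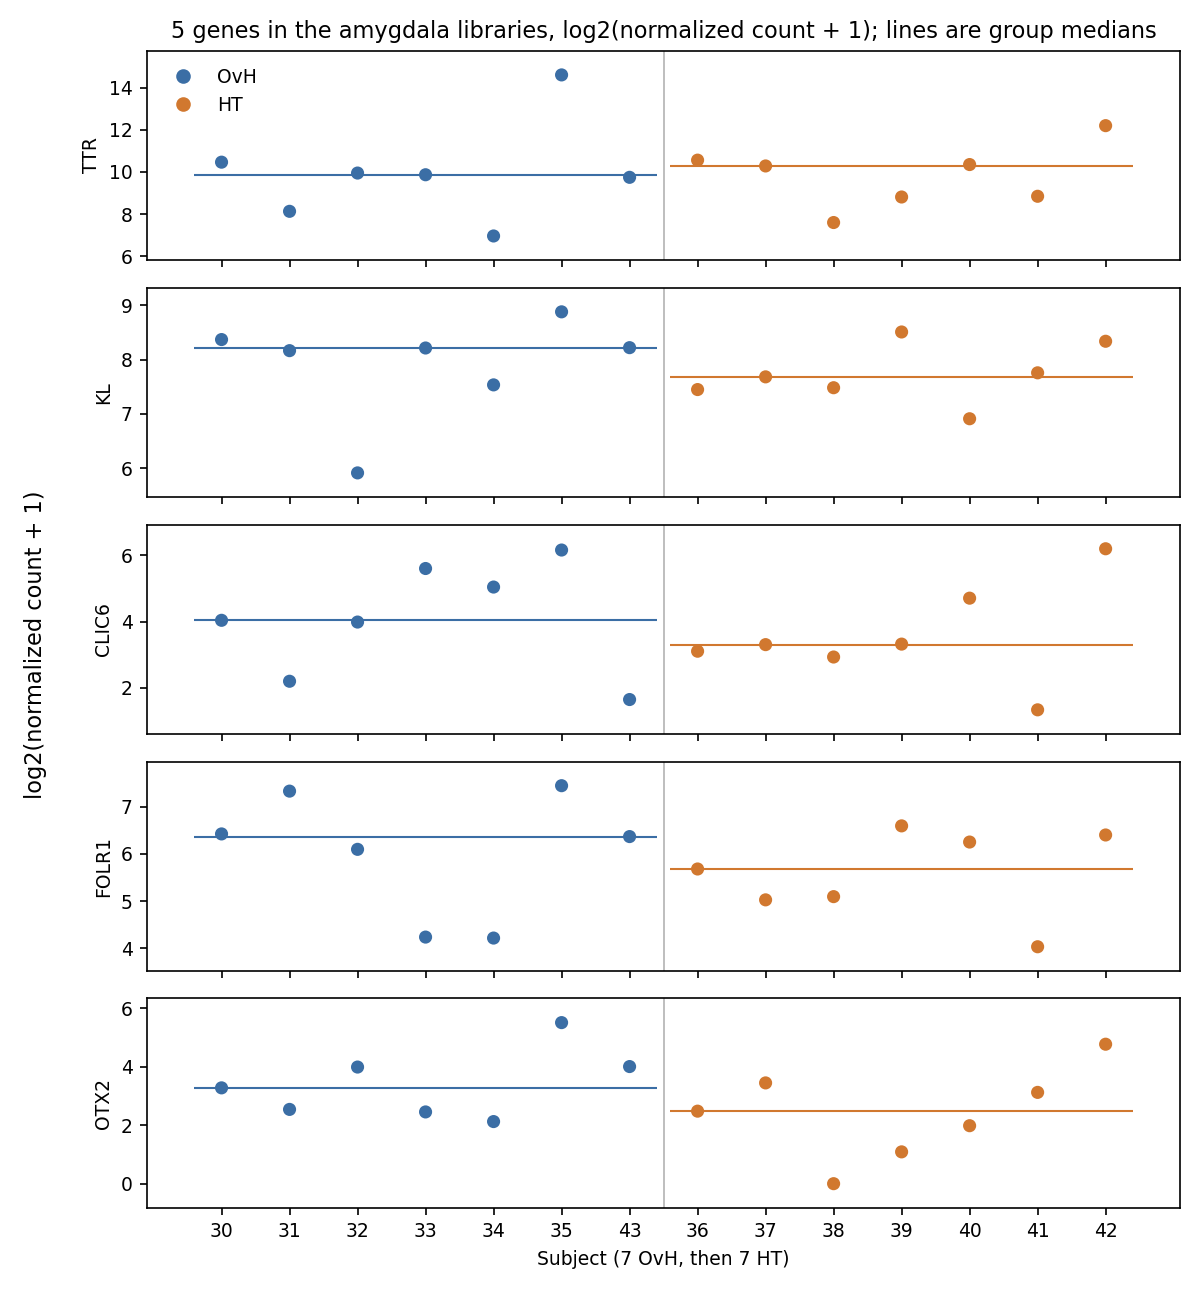
log2(normalized count + 1) of TTR, KL, CLIC6, FOLR1 and OTX2 in the 14 amygdala libraries, OvH to the left and HT to the right; each point is 1 library and lines are group medians. Subject 35 is highest in 4 of 5 panels and subject 42 in the CLIC6 panel.

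Among the 5 genes in amygdala, TTR and OTX2 went together most closely across the 14 animals. Their Pearson r was 0.77 (permutation p = 0.00162, 0.0308 adjusted over 19 relations tested) and Spearman's rho 0.61 (permutation p = 0.0242, adjusted 0.230). Without the 2 animals farthest from the median of TTR, subjects 34 and 35, r was 0.71. Subject 42, second highest in TTR and in OTX2, stayed in for that value. OTX2 counts were low, with 74 reads in subject 35, 16 in subject 42 and at most 14 in any other amygdala library. The rank correlation did not pass adjustment. TTR with CLIC6 gave r = 0.54 and rho = 0.49 (permutation p = 0.0453 and 0.0808, adjusted 0.287 and 0.384), and r was 0.65 without the 2 farthest. KL with FOLR1 gave r = 0.28 and rho = 0.57 (permutation p = 0.342 and 0.0367, adjusted 0.590 and 0.233), and r rose to 0.69 without the 2 farthest.

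TTR and CLIC6 were also set side by side within each other region. Over the 10 hippocampus libraries left without subjects 30, 33, 40 and 43, r was 0.68 and rho 0.77 (permutation p = 0.0261 and 0.0126, adjusted 0.248 and 0.230), with r = 0.64 without the 2 farthest. Libraries 33 and 40 form a cluster of their own, so no value was pooled with them. In occipital cortex r was 0.30 and in prefrontal cortex 0.16 (n = 14 each; permutation p = 0.307 and 0.586).

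TTR was also compared between regions of the same animal. The 6 pairs of regions gave Pearson r from -0.44 (amygdala and hippocampus, n = 10) to 0.47 (hippocampus and prefrontal cortex, n = 10). None passed adjustment, with permutation p from 0.182 to 0.928. Subject 35, highest in amygdala, had 3105 in hippocampus and 43.0 in prefrontal cortex. Subject 33, at 1325282 in hippocampus, had 932 in amygdala, 493 in occipital and 293 in prefrontal cortex. Subject 40 was high in hippocampus and highest in occipital cortex, at 3126, but had 1304 in amygdala and 48.1 in prefrontal cortex.

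Other genes known from the choroid plexus stood high in the hippocampus libraries of subjects 33 and 40 as well. Of 54 such genes in 3 lists, 33 had a usable row that could be tested in hippocampus. In 22 of the 33 the 2 highest of the 14 libraries were those of subjects 33 and 40, where 4.36% of 13499 usable rows showed that order. TTR had singled these libraries out, so the count is a description of them. The order is over all 14 libraries, those that went against their label included, while values below are set against the other 10. Genes named for these libraries were picked after their values were seen.

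Transporters and channels made up the first list, and 9 of 14 showed that order. KCNJ13, the inward rectifier potassium channel Kir7.1 of the epithelium's apical face, stood at 1689 (subject 33) and 2788 (subject 40), against 12.9 through 28.1 to 378 in the other 10 libraries. SLC4A5, a sodium bicarbonate cotransporter, stood at 208 and 335 against at most 75.9. SLC4A2, an anion exchanger, stood at 7865 and 7656 against at most 2638. SLC19A1, the reduced folate carrier, stood at 1120 and 1289 against at most 631. These 4 were above every other library, while KCNE2, KCNQ1, SLC16A8, SLC31A1 and SLC46A1 did not have both libraries on top of all 14. Of these, KCNE2 (228 and 190 against at most 188) and SLC31A1 (1492 and 1659 against at most 1421) still exceeded the other 10. KCNE2 and SLC31A1 missed the order only through the libraries that went against their label.

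Secreted proteins and receptors showed the order in 8 of 12. F5, coagulation factor V, stood at 3189 and 5931 against a median of 83.1, which is 38.4-fold and 71.4-fold. PRLR, the prolactin receptor, stood at 1423 and 1710 against 28.5. CP, the copper-binding ferroxidase ceruloplasmin, stood at 3919 and 7927 against 161, and IGF2, a growth factor, at 19925 and 20669 against 1786. SOSTDC1, at 199 and 338 against at most 106, missed the order only through the libraries that went against their label. LEPR and LRP2 did not follow, with folds of 1.11 and 1.16 in subject 33 and of 0.71 and 0.56 in subject 40.

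Identity and junction genes showed it in 5 of 7. MSX1, a homeobox factor of the dorsal midline, stood at 3025 and 2162 against a median of 97.0. CLDN2, the claudin of leaky epithelia, stood at 390 and 596 against 6.70. It reached the mean of 10 needed for a test only through these libraries. Its place in this count, and in the count over all choroid plexus lists, was thus fixed by the filter. KRT18, an epithelial keratin, stood at 1672 and 920 against 95.3. OCLN and SPINT2 were not led by both libraries.

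Genes of motile cilia, which ependymal cells carry, showed the order in 7 of 13. CFAP52, at 301 and 299 against at most 211, missed it only through the libraries that went against their label. FOXJ1, the master regulator of motile cilia, stood at 4309 and 2033 against a median of 276, and CFAP126 at 1745 and 1526 against 80.3. Fibroblast genes of stroma and meninges showed it in 0 of 10 and endothelial genes in 0 of 8. The median fold of the fibroblast list was 1.25 in subject 33 and 4.87 in subject 40, with COL1A1 at 408 and 1486 against a median of 90.5. Neuron, oligodendrocyte, astrocyte and microglia rows showed the order in 0 of 5, 0 of 4, 0 of 3 and 0 of 3.

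Over all 13490 usable rows compared, the median fold was 0.99 in subject 33 and 1.04 in subject 40. The oligodendrocyte rows moved apart in the 2 libraries, with a median fold of 0.64 in subject 33 and 1.56 in subject 40. Their summed level was 169319 and 474409, against 251926 to 365961 in the other 10. The part of these other cell types in the TTR values was not tested. In the libraries of subjects 39 and 34, next in TTR, CLIC6 was 34.1 and 44.7, beside 43.3 in subject 41, whose TTR was 3817.

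**Figure D3:**
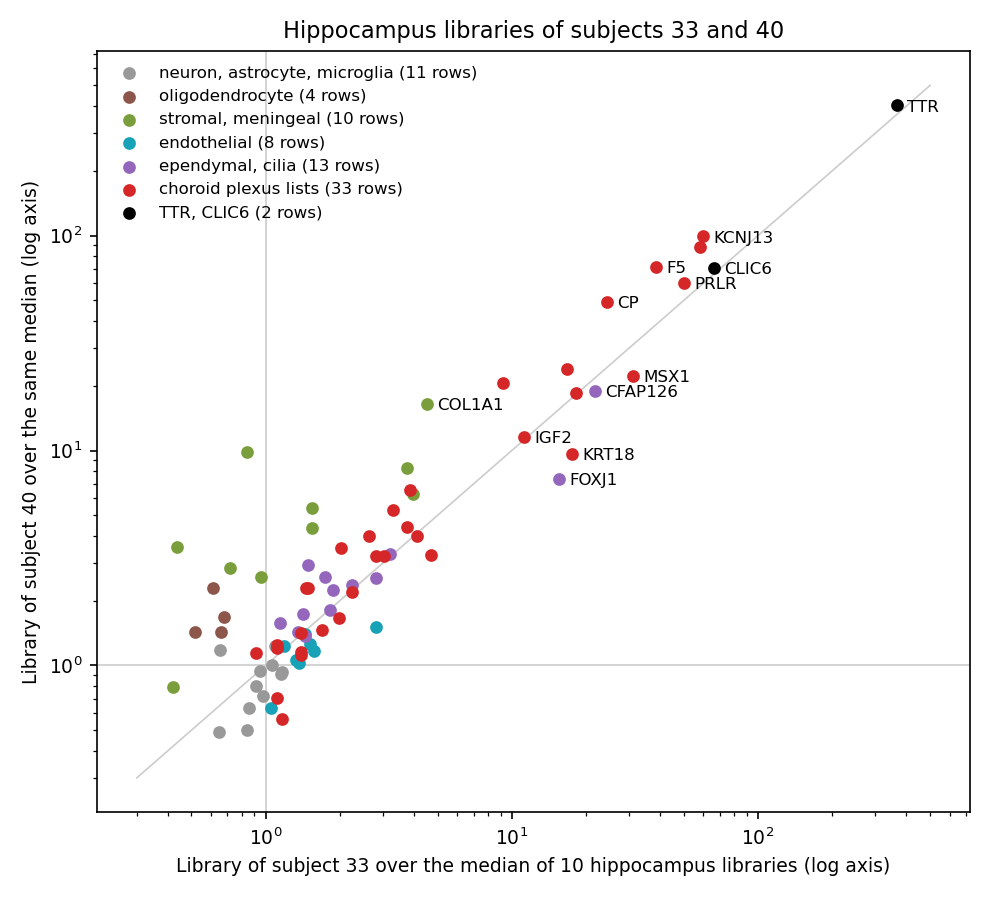
Level of each list gene in the hippocampus library of subject 33 (x axis) and subject 40 (y axis), each divided by the median of the 10 hippocampus libraries without subjects 30, 33, 40 and 43, on log axes; each point is 1 row and the diagonal marks equal folds. TTR lies at 365 and 403, CLIC6 at 66.1 and 70.5, and neuron, astrocyte and microglia rows lie between 0.49 and 1.23.

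In amygdala subject 35 had the highest value for 7 of 43 choroid plexus genes tested, among them CP, PRLR, MSX1 and TRPM3, against the 10.1% of all rows given above. Subjects 35 and 42 were the top pair for 4 of 43, which were SLC13A4, IGF2, WFIKKN2 and MSX1. Subject 42 had the highest summed level of fibroblast genes, 53908 against a median of 9741 over the 14 amygdala libraries, while subject 35 stood at 8432. Subject 35 also had the lowest summed oligodendrocyte level of the amygdala libraries, 313879, where all 14 ran to 1480014. The part of these levels in the TTR values of the 2 libraries was not tested.

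By the rule for genes most like TTR, the 8 rows with the highest Pearson r in each region were named from their log2 levels. In amygdala (14 libraries, 14194 rows compared) they were ADAMTSL4 (0.84), LLGL2, FAM167A, CP, BOC, PAPLN, ADGRG5 and SMO (0.80). Without subject 35 these ran from 0.63 to 0.81, LLGL2 being highest. In hippocampus (14 libraries, 11899 rows) they were CFAP90 (0.95), KIF26A, P3H2, GSTA2, TSPAN4, HVCN1, FBLN1 and CFAP126 (0.92). Over the 10 libraries without subjects 30, 33, 40 and 43 they fell to between 0.03 (FBLN1) and 0.76 (KIF26A). Those values share libraries, depth and the 4 set-aside samples, and no test is attached.

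HT was then compared with OvH, to ask whether estradiol replacement moved these genes. No member passed the threshold in any region. In amygdala 0 of 5 were called, where 6.89% of 16129 rows were called (6.16% higher and 0.732% lower in HT). TTR differed by -0.15 in log2 (95% interval -2.07 to 1.76, adjusted p = 0.944; exact permutation p = 0.898), and 4 of 7 HT animals lay above the OvH median. OTX2 had the largest difference of the 5, -1.0 (-2.45 to 0.45, adjusted p = 0.436; exact permutation p = 0.206), with 2 of 7 HT animals above the OvH median. KL differed by -0.17, CLIC6 by -0.54 and FOLR1 by -0.43, with adjusted p of 0.850, 0.740 and 0.701.

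The median over the 5 genes in amygdala was -0.43, beside 0.01 over all rows tested. All 5 differences were negative in the main test. With libraries scaled to equal totals the median of all rows moved to -0.20, and with edgeR's scaling to -0.10. Without subjects 35 and 42, the TTR difference turned to 0.22 (-1.08 to 1.53, adjusted p = 0.909), and 315 of 16117 rows were called, against 1112 with all libraries. OTX2 was not tested then, because its mean fell below 10.

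In hippocampus TTR differed by 1.87 (95% interval -2.37 to 6.11, adjusted p = 0.9999 by limma; exact permutation p = 0.439). Without subjects 30 and 43, the libraries that went against their label, it turned to -0.46 (-4.23 to 3.32, adjusted p = 0.959). Without subjects 30, 33, 40 and 43 it was -0.025 (-1.78 to 1.73). Without subjects 33 and 40 alone it was 2.16 (-0.77 to 5.08). Without subjects 30 and 43 the group medians were 3650 in OvH (n = 5) and 3817 in HT (n = 7). The direction in hippocampus thus changed with the 2 libraries that went against their label.

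CLIC6 in hippocampus differed by 0.03 (95% interval -2.57 to 2.63), and by -0.50 without subjects 30 and 43. In occipital cortex TTR differed by 0.03 (-1.49 to 1.55), and in prefrontal cortex TTR by -0.74 (-2.23 to 0.74) and CLIC6 by 0.16 (-0.80 to 1.11). The number of rows called by limma was 0 (0%) in each of these 3 regions, with 335, 303 and 603 rows at an unadjusted p under 0.05. In the same order edgeR called 0, 0 and 0 rows and DESeq2 12, 0 and 6. The intervals for TTR were wide, reaching -1.49 and 1.55 even in occipital cortex, so changes inside them cannot be told from none.

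**Figure D4:**
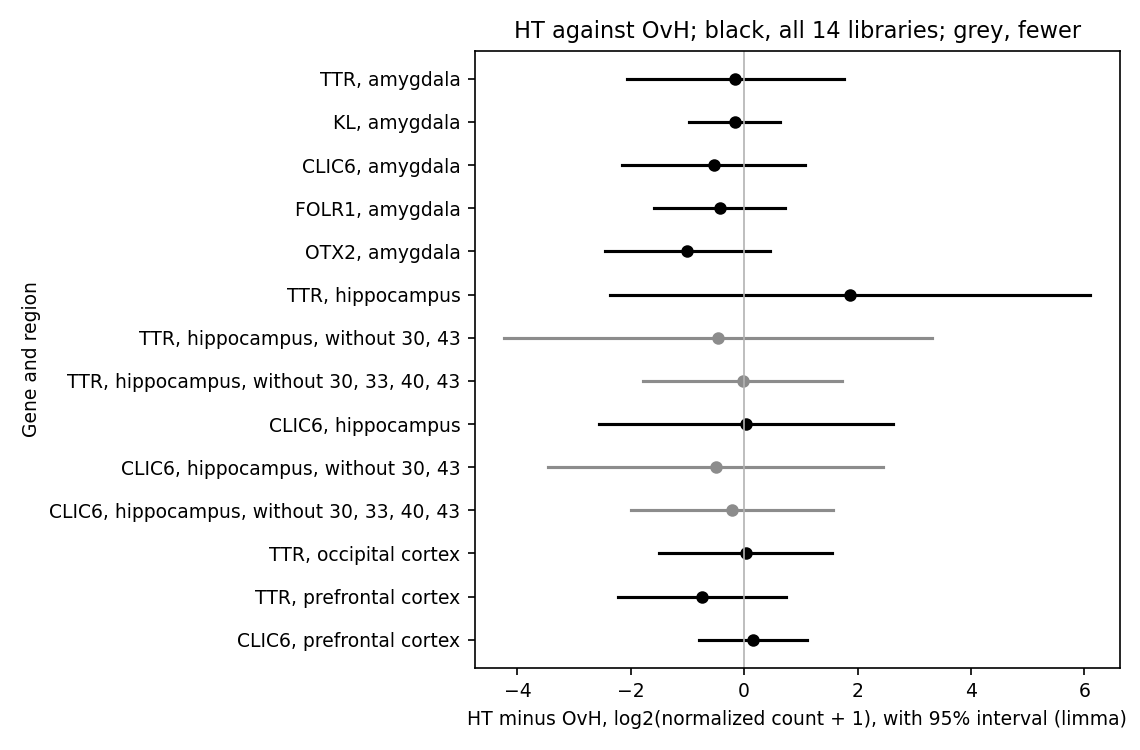
HT minus OvH difference in log2(normalized count + 1) for each gene and region, with its 95% interval from limma; black, all 14 libraries (7 per group), grey, hippocampus with fewer libraries. Every interval crosses 0, and TTR in hippocampus moves from 1.87 to -0.46 without subjects 30 and 43.

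The other genes of the choroid plexus gave 1 call among 43 tested in amygdala, and 0 of 33, 31 and 31 in hippocampus, occipital and prefrontal cortex. The share in amygdala lies below the 6.89% of all rows called there, so the single call is no result about the list, and in the other 3 regions 0% of all rows were called. KCNE2, a potassium channel subunit, ran from 93.4 through 180 to 259 in OvH and from 190 through 340 to 473 in HT. It was higher in HT by 1.07 (SE 0.26, adjusted p = 0.0224), and all 7 HT animals lay above the OvH median, although the groups overlapped. Without subjects 35 and 42 the difference was 0.87 and no longer passed (adjusted p = 0.109). KCNE2 passed in 10 of 14 fits with 1 library left out (adjusted p up to 0.0562) and in 8 of 9 other settings. Among 15 ciliary genes DYDC2 was higher in HT by 0.70 (SE 0.20, adjusted p = 0.0444), and by 0.66 without subjects 35 and 42 (adjusted p = 0.163). It passed in 4 of 14 fits with 1 library left out and in 3 of 9 other settings, with adjusted p up to 0.163.

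Genes of the pathways in which the members act were read from lists, beside the 6.89% of all amygdala rows called. With lists this short, a count of 0 or 1 cannot be told apart from that share. Of 9 tested genes of thyroid hormone and retinol handling, among them RBP4, which binds TTR, STRA6, THRA and THRB, none passed in amygdala, with a median of -0.12. Of 8 genes around klotho and FGF signalling none passed (median -0.09), and of 7 aquaporins and 4 CLIC genes none passed. Of 11 folate genes GGH, the gamma-glutamyl hydrolase, was higher in HT by 0.85 (SE 0.19, adjusted p = 0.0119). Its values ran from 2563 through 3669 to 5195 in OvH and from 4096 through 7413 to 8946 in HT, and the difference was 0.70 without subjects 35 and 42 (adjusted p = 0.0663). GGH passed in 14 of 14 fits with 1 library left out and in 8 of 9 other settings. Of 5 oligodendrocyte rows 2 were called, each higher in HT. The summed oligodendrocyte level had a median of 628595 in OvH and 1055634 in HT. MBP, with an amygdala mean of 608197, is part of that sum. It was higher in HT by 1.14 (adjusted p = 0.0297), or 1.06 without subjects 35 and 42 (adjusted p = 0.0751). MBP passed in 7 of 14 fits with 1 library left out (adjusted p up to 0.0786) and in 7 of 9 other settings. Of 4 microglia genes 1 was called, AIF1, while CSF1R, CX3CR1 and P2RY12 did not pass (median of the list 0.23). AIF1 was higher in HT by 1.06 (adjusted p = 0.00690), and by 1.01 without subjects 35 and 42 (adjusted p = 0.0450). It passed in 14 of 14 fits with 1 library left out and in 8 of 9 other settings (adjusted p up to 0.120). The part of these cell types in the calls was not tested.

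Whether the HT difference of hippocampus differed from that of the 2 cortices was tested in 1 model with the animal as a block. For TTR that difference was 2.23 (95% interval -0.97 to 5.42, adjusted p = 0.982), and without subjects 30 and 43 it was -0.052 (-2.98 to 2.87). For CLIC6 it was 0.10 (-2.14 to 2.35). Over all 16354 rows 0 (0%) passed with limma, and 562 had an unadjusted p under 0.05.

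Between regions, TTR was higher in hippocampus than in either cortex. Hippocampus exceeded occipital cortex by 3.83 in log2 (95% interval 1.99 to 5.68, adjusted p = 0.000688) and prefrontal cortex by 5.48 (3.63 to 7.32, adjusted p = 1.33e-05), with the animal as a block. In each comparison 12 of 14 animals had the higher value in hippocampus, and the exceptions were subjects 30 and 43. Without those 2 animals the differences were 4.89 (3.29 to 6.49, adjusted p = 5.6e-06) and 6.69 (5.09 to 8.29, adjusted p = 4.91e-08), in 12 of 12 animals. Without subjects 30, 33, 40 and 43 they were 3.84 and 5.33, in 10 of 10 animals, and without subjects 33 and 40 alone 2.78 and 4.14. TTR was thus higher in hippocampus also without the 2 very high libraries.

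Region differences are common in this table, which sets the weight of these calls. Of 16354 rows, 50.7% were called between hippocampus and occipital cortex (28.1% higher and 22.6% lower in hippocampus), and 43.4% between hippocampus and prefrontal cortex (20.9% and 22.6%). Between occipital and prefrontal cortex 47.9% were called (19.7% higher and 28.2% lower in occipital cortex). Both members were called in the first comparison, and 1 of 2 in each of the others.

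TTR in occipital cortex exceeded that in prefrontal cortex by 1.64 (95% interval -0.20 to 3.49, adjusted p = 0.135), in 11 of 14 animals, and did not pass. Without subjects 30, 33, 40 and 43 it was 1.49 (0.41 to 2.58, adjusted p = 0.0214) and did pass. The order of the medians of TTR was hippocampus (3627), amygdala (959), occipital cortex (408) and prefrontal cortex (135). Amygdala was not tested against the others because of its row names. Its TTR level was also used to select the row outside it, so its place in this order is no independent result.

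CLIC6 was lowest in occipital cortex. It entered the region test through hippocampus and prefrontal cortex (means of 133 and 18.6), since its occipital mean of 3.48 is below the minimum of 10, so its differences from occipital cortex are no independent support. Hippocampus exceeded occipital cortex by 2.68 (95% interval 1.42 to 3.93, adjusted p = 0.000505), in 12 of 14 animals. The difference was 2.71 (adjusted p = 0.00126) without subjects 30 and 43, and 1.57 (adjusted p = 0.00505) without subjects 30, 33, 40 and 43. Occipital cortex was below prefrontal cortex by 2.21 on this scale (log2 difference -2.21, -3.46 to -0.96, adjusted p = 0.00375), and lower in all 14 animals. The occipital values rested on at most 8 reads each, and with a pseudocount of 16 the difference was -0.77 and did not pass (adjusted p = 0.113). Hippocampus and prefrontal cortex differed by 0.47 (-0.78 to 1.72, adjusted p = 0.557), by 0.78 without subjects 30 and 43 (adjusted p = 0.341), and by -0.52 without subjects 33 and 40.

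**Figure D5:**
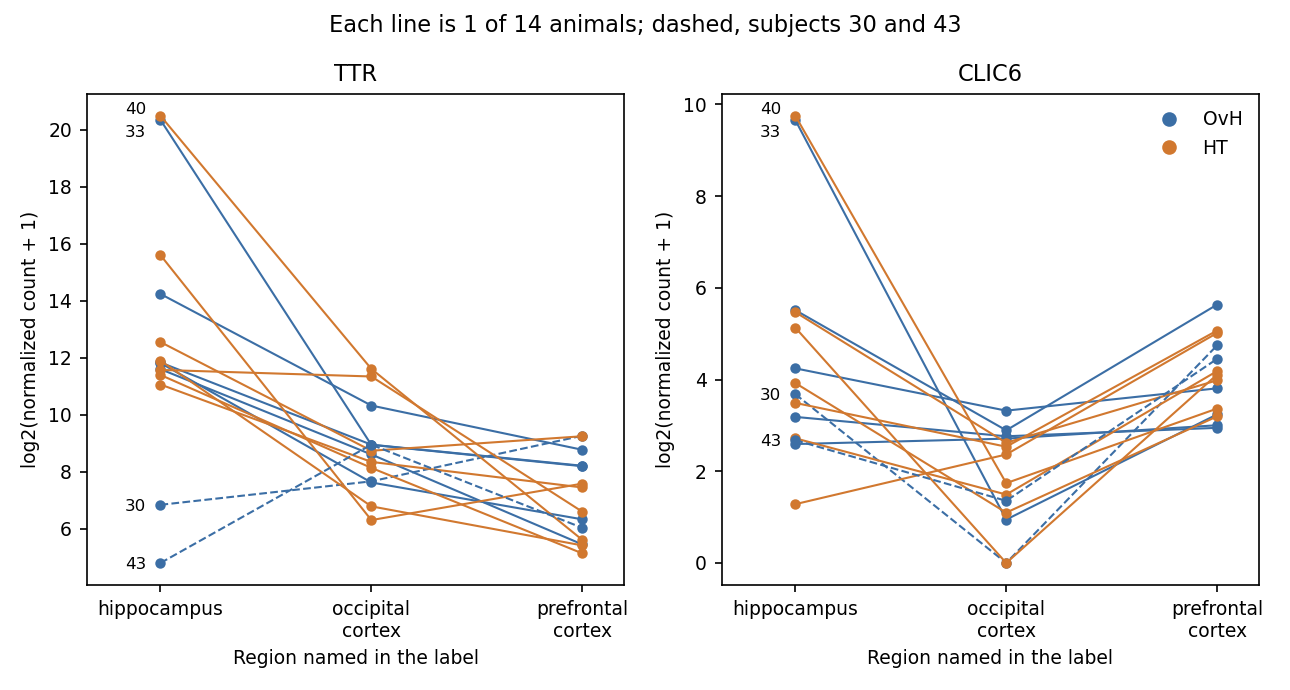
TTR and CLIC6 as log2(normalized count + 1) in hippocampus, occipital and prefrontal cortex; each line joins the libraries of 1 of the 14 animals, coloured by treatment, with subjects 30 and 43 dashed. TTR falls from hippocampus to the cortices in 12 of 14 animals, and CLIC6 is lower in occipital than in prefrontal cortex in all 14.

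Genes of the choroid plexus lists were also compared between regions. Of 33 genes 18 were higher and 2 lower in hippocampus than in occipital cortex, where 28.1% of all rows were higher and 22.6% lower. Against prefrontal cortex 17 were higher and 2 lower, where 20.9% of all rows were higher. In each comparison 2 of the genes called higher, PRLR and CLDN2, had a cortical mean under 10 and were tested only through their hippocampal level. Without subjects 30 and 43 the counts were 21 higher and 2 lower, and 17 higher and 1 lower, where 4876 and 4029 of 16342 rows were higher. Without subjects 30, 33, 40 and 43 they were 16 higher and 4 lower, and 15 higher and 3 lower, of 32 tested, where 4890 and 3900 of 16330 rows were higher. The counts were lowest without subjects 33 and 40 alone, at 13 higher and 4 lower, and 13 higher and 3 lower, of 32 tested. In that setting 4542 and 3091 of 16339 rows were higher.

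KRT18 was higher in hippocampus than in occipital cortex by 2.46 (adjusted p = 0.000196), and by 2.95 without subjects 30 and 43. WFIKKN2, a secreted protein with protease inhibitor domains, was higher by 2.36, and by 2.76 without them. SOSTDC1, a secreted inhibitor of BMP and Wnt signalling, was lower by 1.28 (log2 difference -1.28, adjusted p = 0.000881), with a difference of -1.70 without them. Of 13 ciliary genes 11 were higher than in occipital cortex and 1 lower, and 2 of the 11 had an occipital mean under 10. Among the others FOXJ1 was higher by 2.19, and by 2.72 without subjects 30 and 43.

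Genes of other cell types differed in the same comparisons. Against occipital cortex 3 of 3 microglia genes were higher (median 1.19) and 4 of 5 neuron genes lower (median -0.40), beside a median of 0.03 over all rows. Against prefrontal cortex 3 of 3 microglia, 3 of 3 astrocyte and 3 of 4 oligodendrocyte rows were higher. The part of cell makeup in the region differences of TTR and CLIC6 was not tested. Between occipital and prefrontal cortex 3 of 33 choroid plexus genes were higher and 3 lower, where 19.7% and 28.2% of all rows were.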

How the data were processed

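Per the labels, stranded messenger RNA libraries were made from 4 brain regions of 14 macaques and sequenced as paired ends. The deposited table holds normalized read signal that the authors made: the submitters' processing notes name Trimmomatic, FastQC 0.1.1.2, STAR 2.7.3a, edgeR 3.28.0 and the build Mmul_10. The counting program and annotation release were not given in the sources used here. The upper quartile was 2818.9375 in all 56 libraries. Undoing each library's scaling gave whole reads for 100% of values (within 0.01), and the count tests on these reads are alternatives.

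Groups and animals came from the labels. Of 17807 rows, 15123 had a symbol and 13520 were usable outside amygdala. HT was compared with OvH within a region by limma 3.58.1 (R 4.3.3), two-sided, with an intensity trend, on log2(value + 1) of rows with a mean of at least 10. Regions were compared with the animal as a block, since the labels pair libraries by animal: the deviations of 42 pairs of libraries of an animal correlated at -0.23 to 0.76 (mean 0.39). The exact permutation tests were two-sided. The scripts were tested on simulated data. Alternatives were another pseudocount, no filter, equal totals, no trend, a TTR covariate, other blocks, edgeR 4.0.16, DESeq2 1.42.0 and fewer libraries. Leaving out subjects 30 and 43, subjects 30, 33, 40 and 43, or subjects 35 and 42 in amygdala was chosen after seeing the data.

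The members and gene lists were chosen with earlier results of these data known. The genes named were the members, those of 16 lists of cell types and pathways, and the 8 rows most like TTR in a region. No sequence is shown.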

Additional observations from a re-analysis of the deposited data

Results flagged for a closer look

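In 11 of 22 groups of 7 libraries, the highest library lay farther from its neighbour than Dixon's limit for 7 samples allows. Chance flags about 1 group in 20 for normally distributed values. These are normalized counts, which are skewed, so that rate does not apply to them, and the TTR levels were known when the genes were chosen. On the log2 scale, tried after seeing the data, 1 of the 22 groups passed the same limit, CLIC6 in OvH in hippocampus (subject 33). On the unlogged scale the TTR libraries apart were those of subject 35 (24979) in OvH and subject 42 (4697) in HT in amygdala. In hippocampus they were subject 33 (1325282) in OvH and subject 40 (1462333) in HT. In the cortices they were subject 34 (1282) in OvH in occipital cortex and subject 37 (607) in HT in prefrontal cortex. For CLIC6 they were subject 42 (72.0) in HT in amygdala, and subjects 33 (807) and 40 (860) in hippocampus. For OTX2 in amygdala they were subject 35 (44.3) in OvH and subject 42 (26.2) in HT. KL and FOLR1 had no library apart by this limit.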

How the results depend on the processing

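Of 396 differences of single members under other settings, 357 kept their direction and side of the threshold, 37 turned, 1 lost the call and 1 gained it. The settings without subjects 30 and 43, without subjects 30, 33, 40 and 43, and without subjects 35 and 42 in amygdala were chosen after seeing the data. The cause of the changes below was not tested.

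Rows called for HT in amygdala numbered 1112 (994 higher, 118 lower), 315 without subjects 35 and 42, 1732 by DESeq2, and 548 (without subject 33) to 2362 (without subject 32) when 1 library was left out. Equal totals gave 1634 (618 higher, 1016 lower) and edgeR 1018 (675 higher, 343 lower). With the animal as a replicate block over all 56 libraries 1370 were called. In hippocampus equal totals gave 1 and DESeq2 12, and leaving out 1 library gave 0 each time. In occipital cortex the replicate block gave 1, and leaving out 1 library 0 to 1. In prefrontal cortex a pseudocount of 16 gave 1, DESeq2 6, and leaving out 1 library 0 to 1. Without a replicate block the region comparisons called 7254, 5848 and 6687 rows. The block changed no call of a member.

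For HT in amygdala TTR turned to 0.22 without subjects 35 and 42 and to 0.79 by DESeq2, and ran from -0.65 to 0.62 with 1 library left out. In hippocampus TTR turned to -0.46 without subjects 30 and 43 and to -0.025 without subjects 30, 33, 40 and 43. CLIC6 there turned to -0.50 and -0.21 in these settings and to -0.93 with TTR as a covariate, and ran from -0.84 to 0.89 with 1 library left out. TTR in occipital cortex ran from -0.45 to 0.44, and CLIC6 in prefrontal cortex from -0.015 to 0.43, with 1 library left out. CLIC6 in prefrontal cortex was -0.014 by edgeR and -0.016 by DESeq2. CLIC6 between hippocampus and prefrontal cortex turned to -0.52 without subjects 33 and 40 and to -0.34 without subjects 30, 33, 40 and 43. The HT difference of hippocampus minus that of the cortices turned to -0.052 for TTR and -0.29 for CLIC6 without subjects 30 and 43, and ran from -0.82 to 1.11 for CLIC6 with 1 animal left out. TTR in occipital against prefrontal cortex passed without subjects 30, 33, 40 and 43 (1.49), and CLIC6 did not pass with a pseudocount of 16 (-0.77). A limit of 1 in place of 2 for using a row outside amygdala kept 2 members, and a limit of 3 gave 3.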
